A study of Rattus norvegicus with 56 samples.

Results

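Parietal cortex of aged rats that had received sham stimulation was compared between animals labeled as cognitively impaired and as unimpaired. The 8 arrays of the comparison, of 56 in the series, were chosen by their titles: the first array of each of 4 AI_Sham (aged-impaired) and 4 AU_Sham (aged-unimpaired) animals. All were male Long-Evans rats of 26 to 27 months, an outbred strain, and both groups were handled alike. The labels ascribe this classing to a spatial water maze, with the scores of young rats as the standard, whereas the study's methods describe maze testing for the rats of a separate slice experiment. Both groups went through the same light isoflurane anesthesia, dexmedetomidine sedation and its reversal, with the coil kept away from the head, and tissue was taken 48 h later. No manipulation set the groups apart, and each animal is 1 sample.

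The parietal cortex integrates touch, vision and position in space and exchanges information with the hippocampus. Its excitatory pyramidal neurons signal through glutamate receptors, its interneurons through GABA, and its oligodendrocytes wrap axons in myelin, the lipid sheath that speeds conduction. In aged rodents synapses, myelin and glia all alter with time, and animals of the same age differ widely in spatial memory. An RNA level in a piece of tissue cannot tell fewer cells of a type from less RNA per cell.

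Total RNA was measured on 1-color Agilent rat arrays, in which a probe is a short DNA strand that captures the labeled copy of 1 transcript. Levels are given as normalized log2 signal, on which 0 is the mean of an array and 1 unit is a doubling. A difference is AI_Sham minus AU_Sham on that scale. The 4 values of a group are listed in the order of animals 1 to 4. Differences carry the 95% interval or standard error (SE) of limma's moderated test with n = 4 against n = 4, and a p-value adjusted over all probes, in a model of all 24 cortex animals, in 6 groups. A probe was tested where it was well above background on at least 3 of the 24 cortex arrays, and it was called at an adjusted p under 0.05.

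On these arrays 62.4% ± 1.14 (SD, n = 4) of the probes were well above background in AU_Sham and 64.7% ± 1.40 (SD, n = 4) in AI_Sham (exact permutation p = 0.0857). Before scaling, the SD of log2 signal within an array was 3.96 on average in AU_Sham and 4.08 in AI_Sham, higher on all 4 AI_Sham arrays (exact permutation p = 0.0286, the smallest that 70 divisions of 8 arrays can give). AU_Sham 1 and AI_Sham 1 lay on the same slide. The other 3 AU_Sham arrays lay on a second slide and the other 3 AI_Sham arrays on another, so that for these 6 animals slide and group cannot be told apart without the other groups. Over 38 to 45 probes, picked in the other 23 animals because they varied alike in both regions, each of the 8 cortex arrays correlated best with the hippocampus array of its own animal (r from 0.79 to 0.98, against at most 0.65 for any other animal). Of the cortical layer markers, 10 of 22 were higher in cortex than in hippocampus in all 8 animals, Foxp2 among them, and 9 of 16 hippocampal markers were lower, Fibcd1 and Htr5b among them. The opposite held in all 8 animals for 1 marker of each list: Bcl11b, of the cortical list, was lower in cortex, and Tyro3, of the hippocampal list, was higher. A repeat array titled as AI_iTBS 2 cortex correlated with AI_Sham 2 at 0.97 and with its own first array at -0.16. Which of these titles is right was not tested. The groups of AI_Sham 2 and AI_iTBS 2 therefore rest on the titles of their first arrays. Only first arrays were used.

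No probe passed the adjusted threshold. Of 32603 probes tested 0.00% were called, and the smallest adjusted p was 0.241. At an unadjusted p under 0.05 there were 2029 probes (6.22%), with 1191 (3.65%) higher and 838 (2.57%) lower in AI_Sham. That split depended on the scaling: with each array centered on its 75th percentile it was 791 higher and 1081 lower, and with quantile normalization 993 and 945. The 4 AI_Sham values lay wholly above the 4 AU_Sham values at 625 probes (1.92%) and wholly below at 522 (1.60%). AI_Sham 2 was the impaired animal nearest the AU_Sham mean at 48.7% of the probes with p under 0.05, against 32.8% of all probes, and without it 3106 probes had p under 0.05. Differences between these groups are therefore given as measured, and none of them passed correction.

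Among probes well above background on all 8 arrays, the smallest p-value in the higher direction was at Rnf225, which encodes a RING finger protein. Its level was -1.85, -1.96, -1.62 and -1.71 in AU_Sham and -0.81, -1.22, 0.31 and -0.65 in AI_Sham. Every impaired animal was above every unimpaired one, and the difference was 1.19 (95% interval 0.71 to 1.67, adjusted p = 0.241). Slc35d2, a transporter of nucleotide sugars into the Golgi, read -1.11, -0.63, -1.35 and -1.35 in AU_Sham and 0.15, -0.57, -0.22 and 0.28 in AI_Sham, again without overlap, a difference of 1.02 (95% interval 0.55 to 1.49, adjusted p = 0.341). Piwil2, a PIWI protein best known for guarding the germ line against transposons, read 0.18, 0.63, 0.20 and 0.50 against 1.33, 0.93, 1.49 and 1.57, a difference of 0.95 (95% interval 0.51 to 1.40, adjusted p = 0.344). Oaz3, an antizyme that restrains polyamine synthesis, read -1.09, -0.85, -0.98 and -1.29 against -0.54, -0.26, -0.34 and -0.21. The groups were apart here too, by 0.71 (95% interval 0.37 to 1.05, adjusted p = 0.380), and a second probe of Oaz3 gave 0.83 (adjusted p = 0.716). The other 6 of the 10 leading probes in this direction were Ankrd44 (0.73), a regulatory subunit of protein phosphatase 6, Tmem117 (0.57), the cytochrome P450 gene Cyp2s1 (0.67), the spindle orientation adaptor Insc (0.97), the phospholipid flippase Atp11a (0.55) and Stxbp3 (0.55), a Sec1/Munc18 protein of vesicle fusion. In none of these 6 did the groups overlap, and their adjusted p-values lay between 0.616 and 0.653. All 3 probes of Atp11a pointed the same way, at 0.55, 0.40 and 0.38.

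In the lower direction the 10 leading probes included Prkacb, Gria3, Syn2, Gabra4 and Cnksr2, whose products act at synapses. Prkacb, a catalytic subunit of protein kinase A, read 1.28, 1.56, 1.64 and 1.30 in AU_Sham and 0.39, 0.94, 0.25 and 0.20 in AI_Sham, without overlap, a difference of -0.999 (95% interval -1.44 to -0.56, adjusted p = 0.287). Gria3, the GluA3 subunit of AMPA-type glutamate receptors, read 2.86, 3.00, 3.10 and 2.88 against 2.00, 2.65, 2.44 and 2.44. Each impaired animal was below each unimpaired one, and the difference was -0.58 (95% interval -0.84 to -0.32, adjusted p = 0.338). Syn2, a synapsin that tethers synaptic vesicles, read 6.58, 6.47, 6.55 and 6.44 against 5.75, 6.24, 5.50 and 5.71, also without overlap, a difference of -0.71 (95% interval -1.09 to -0.33, adjusted p = 0.653). Gabra4, the alpha4 subunit of GABA-A receptors, read 3.96, 4.29, 4.19 and 4.36 against 1.99, 4.00, 3.13 and 3.41. AI_Sham 1 was lowest and AI_Sham 2 was within the AU_Sham range, and the difference was -1.07 (95% interval -1.66 to -0.47, adjusted p = 0.653). Cnksr2, a postsynaptic scaffold, differed by -0.74 (95% interval -1.14 to -0.33, adjusted p = 0.653), and Scn3a, a voltage-gated sodium channel, by -0.81 (95% interval -1.26 to -0.35, adjusted p = 0.653). In both, AI_Sham 2 was again inside the range of the unimpaired animals while the other 3 were below it. Trim15, which had the largest difference of the 10, read -1.08, -1.01, 0.43 and -1.01 against -2.08, -2.30, -1.88 and -2.20, a difference of -1.45 (95% interval -2.16 to -0.74, adjusted p = 0.467) of which AU_Sham 3 carried the high value. Its other probes gave 1.34 and 0.013. The remaining leading probes were Pdzd2 (-0.68), a protein of several PDZ domains, Itga4 (-1.04), the alpha4 integrin of leukocyte adhesion, and Trim44 (-0.75), of the tripartite motif family.

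**Figure D1:**
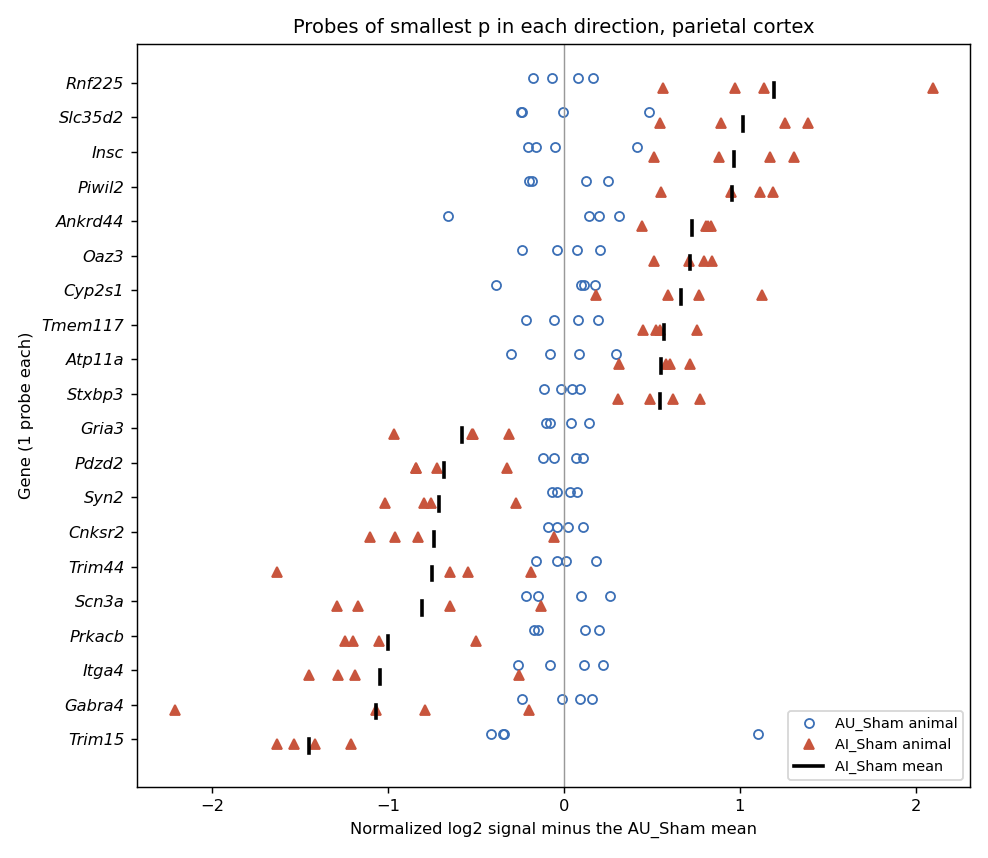
Normalized log2 signal of each animal minus the AU_Sham mean, for the 10 probes of smallest p in each direction among those well above background on all 8 arrays. Circles are the 4 AU_Sham animals, triangles the 4 AI_Sham animals and bars the AI_Sham means, which run from -1.45 at Trim15 to 1.19 at Rnf225. The probes were chosen by this contrast, so the separation is a description.

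Several of these genes had further probes, and in each of the following, picked as examples, the brightest lay nearest 0 or nearly so. Other genes named below, such as Nlgn3, went the other way. The probe of Prkacb given above was dim, with a mean level of 0.89 over the 24 cortex arrays. The brightest Prkacb probe, at 8.08, gave a difference of -0.030 (SE 0.16), and both remaining probes gave 0.054 (SE 0.23) and -0.72 (SE 0.52). For Gria3 the probe at a mean level of 7.79 gave -0.18 (SE 0.21), while both dimmer probes gave -0.55 and -0.58. The brightest Cnksr2 probe gave -0.032 (SE 0.16) beside -0.37 and -0.74 at the dimmer ones, and the brighter Syn2 probe gave -0.20 (SE 0.21). Slc12a5 encodes KCC2, the neuronal potassium chloride cotransporter that sets the strength of GABA inhibition. Its dim probe differed by -1.12 (95% interval -2.02 to -0.22, adjusted p = 0.711), with AI_Sham 1 at -1.87 far below the other impaired animals, and its bright probe by -0.15 (SE 0.20). Some of these probes are named for different transcripts of the gene and others for the same one. Where in the transcript each probe binds was not used here. Over the 228 probes of genes with a further probe that were lower at p under 0.05, the median difference was -0.52, while the brightest other probe of the same genes had a median of -0.15, the same sign in 78.1% and p under 0.05 with the same sign in 11.0%. In 175 of the 228 that other probe was the brighter. For the 173 such probes that were higher, the medians were 0.54 and 0.18, with the same sign in 70.5% and p under 0.05 in 16.2%. The share of all probes with p under 0.05 was 2.57% in the lower and 3.65% in the higher direction. Gene lists below use the brightest probe of each gene.

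**Figure D2:**
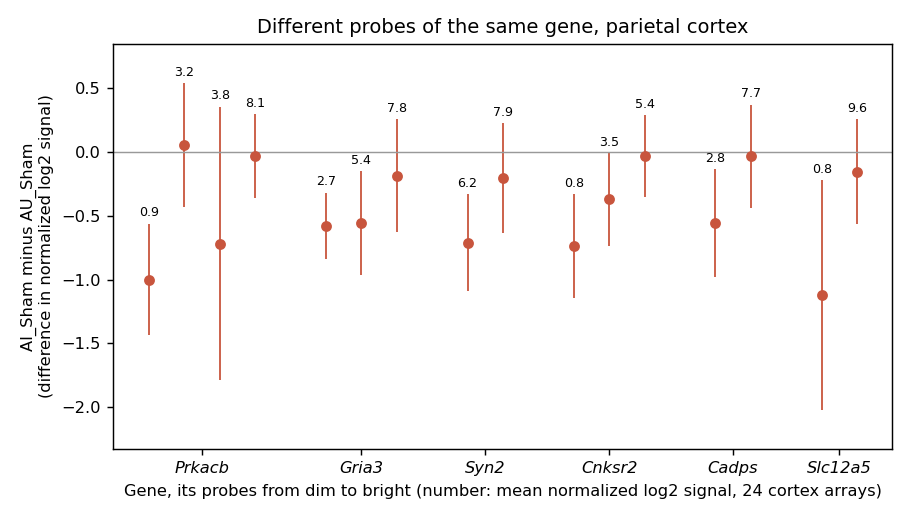
Difference between AI_Sham and AU_Sham cortex, in normalized log2 signal, for each tested probe of 6 genes; bars are 95% intervals of limma's fit. Probes of a gene run from dim to bright, with the mean level over the 24 cortex arrays printed above each, and the brightest probe lies nearer 0 than the dimmest in all 6 genes. These genes were picked as examples. At other named genes, Nlgn3 and Hsp90ab1 among them, the brighter probe lay farther from 0.

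Some probes were well above background in 1 group only, so that only a lower bound of the ratio at that probe can be given. Each bound sets the mean of the brighter group against the lowest level at which probes on an array were well above background, or the dim group's own level where that was higher. Ankrd1, an ankyrin repeat protein of muscle and injured tissue, was well above background in 4 of 4 AI_Sham and 0 of 4 AU_Sham animals. It read -2.77, -2.52, -3.06 and -2.84 against -1.44, -2.14, -0.79 and -1.61, at least 2.15-fold higher (adjusted p = 0.653). Npm2, an oocyte histone chaperone, showed the same detection pattern and a bound of 1.72-fold, and Clec3a, a C-type lectin of cartilage, was detected in 3 of 4 against 0 of 4 with a bound of 2.44-fold. The bounds of Spdye4 and LOC102549473 were 1.30 and 1.36-fold. No impaired animal overlapped the unimpaired ones at any of these 5 probes. They were picked for detection in AI_Sham only and for a small p, so this separation is a description. Of all probes 1.92% were apart in this direction. In the other direction Cyp1b1, a cytochrome P450 of steroid and xenobiotic metabolism, was well above background in 3 of 4 AU_Sham and 0 of 4 AI_Sham animals, at 1 of its 3 probes, reading -2.48, -1.93, -1.93 and -1.16 against -4.41, -4.81, -3.50 and -2.79, at least 2.45-fold lower there (adjusted p = 0.712). The other Cyp1b1 probes gave -0.037 and -0.28 and were above background in 1 of 4 AU_Sham with 3 of 4 AI_Sham and in 1 of 4 with 1 of 4 animals, so no direction is given for the gene. Dkk1, a secreted Wnt inhibitor, had a bound of 2.66-fold lower at 1 probe, but a second Dkk1 probe was higher in AI_Sham by 1.36 (adjusted p = 0.653), and none is given here either. Klhl40, Or13a1 and Smptb had bounds of 1.74, 1.62 and 2.32-fold lower, with groups that overlapped, and the adjusted p of Smptb was 0.819.

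The largest differences without overlap among probes well above background on all 8 arrays included Rnf225, Trim15, Slc12a5 and Prkacb, given above, and the following. Gal, the neuropeptide galanin, read 2.08, 1.53, 1.62 and 2.53 in AU_Sham and 2.72, 2.68, 3.73 and 2.87 in AI_Sham, higher by 1.06 (95% interval 0.13 to 1.99, adjusted p = 0.738), with the highest value in AI_Sham 3. C1qtnf9, a C1q and TNF related adipokine, read -0.10, 0.12, -0.62 and -1.57 against 0.72, 0.41, 0.65 and 1.39, a difference of 1.34 (95% interval 0.54 to 2.13, adjusted p = 0.653). Apln, the peptide apelin, read 6.71, 6.99, 7.11 and 7.22 against 5.56, 6.02, 5.58 and 6.06, a difference of -1.21 (95% interval -1.99 to -0.42, adjusted p = 0.658) with the groups wholly apart. A second Apln probe gave 0.31 (SE 0.24), the opposite sign, so no direction is given for the gene. The calcium-activated chloride channel regulator Clca1 (1.03) and Tmem215 (1.03) were higher in every impaired animal, and Ece2, an endothelin-converting protease, had a difference of -1.03 (95% interval -2.27 to 0.21, adjusted p = 0.879), with no overlap but a wide spread in AI_Sham.

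The myelin and oligodendrocyte genes were higher in AI_Sham nearly throughout. Of 27 genes tested, 25 had a higher mean in AI_Sham, against 54.0% of all 13336 genes, and the median difference was 0.44, against 0.021 over all genes. At an unadjusted p under 0.05, 11 of 27 were higher and none was lower, where 3.85% of all genes were higher and 1.94% lower. In 3 of the 27 the groups did not overlap, as in 1.90% of all genes in this direction. None of the 27 passed correction in limma. The mean level of the list was 5.43, 5.83, 5.68 and 5.56 in AU_Sham and 5.77, 5.79, 6.13 and 6.43 in AI_Sham. AI_Sham 3 and 4 were above all unimpaired animals, whereas AI_Sham 1 and 2 lay within their range.

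Sox10, the transcription factor that fixes oligodendrocyte identity, read 5.38, 5.50, 5.36 and 4.88 against 6.32, 5.40, 5.89 and 6.27, a difference of 0.69 (95% interval 0.24 to 1.14, adjusted p = 0.658). AI_Sham 2 overlapped the unimpaired group. Olig2, a second lineage factor, was higher in every impaired animal, at 5.14, 5.23, 5.35 and 5.82 against 4.79, 5.00, 5.10 and 4.82 in AU_Sham, by 0.46 (95% interval 0.10 to 0.81, adjusted p = 0.708). Nkx6-2, a homeodomain factor of maturing oligodendrocytes, differed by 0.63 (95% interval 0.040 to 1.21, adjusted p = 0.772). Ugt8, the enzyme that makes the myelin lipid galactosylceramide, read 4.79, 5.26, 5.09 and 5.12 against 5.31, 5.57, 6.00 and 6.22, with no overlap and a difference of 0.71 (95% interval 0.24 to 1.18, adjusted p = 0.672). Fa2h, which hydroxylates the fatty acids of myelin lipids, differed by 0.64 (95% interval 0.17 to 1.11, adjusted p = 0.699). Bcas1, which marks oligodendrocytes that are beginning to myelinate, read 5.26, 5.36, 4.71 and 5.29 against 5.92, 5.78, 5.89 and 6.03, apart in all 8 animals and higher by 0.75 (95% interval 0.20 to 1.30, adjusted p = 0.699). Of the membrane proteins, Mog, the myelin oligodendrocyte glycoprotein on the outer surface of the sheath, differed by 0.66 (95% interval 0.068 to 1.25, adjusted p = 0.750), Opalin by 0.60 (95% interval 0.12 to 1.08, adjusted p = 0.711), and Gpr37, a receptor of mature oligodendrocytes, by 0.52 (95% interval 0.13 to 0.92, adjusted p = 0.703). The protease Klk6 (0.66) and the carbonic anhydrase Car2 (0.54) completed the 11. Of the structural genes of compact and inner myelin, Mobp differed by 0.49 (95% interval -0.12 to 1.10, adjusted p = 0.888) and Mag by 0.37 (95% interval -0.12 to 0.87, adjusted p = 0.899), and Mbp, myelin basic protein, by -0.27 (95% interval -0.66 to 0.12, adjusted p = 0.923). Pdgfra, the defining receptor of oligodendrocyte precursors, differed by 0.0040 (95% interval -0.35 to 0.36, adjusted p = 1.000), and the precursor proteoglycan Cspg4 by 0.17 (95% interval -0.46 to 0.80, adjusted p = 1.000).

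The count of myelin genes at p under 0.05 depended on single animals. Without AU_Sham 1 or without AI_Sham 3 it was 7, and without AI_Sham 4 it was 3 of 27, with a median of 0.32. With slide as a block it was 4, with 22 of 27 higher and a median of 0.45, and between AI_Sham 1 and AU_Sham 1, which shared a slide, the median difference was 0.35. Across all 16 alternatives for the list the median stayed between 0.32 and 0.72. AI_Sham 4 also had the highest mean level of the choroid plexus markers, at 2.12 beside 0.35 to 1.26 in the other impaired and 0.47 to 0.95 in the unimpaired animals, and of the striatal and thalamic markers, at 3.04 beside 2.45 to 2.81 in the other 7 animals. The choroid plexus list itself had a median of 0.26, with 9 of 11 higher and 1, Enpp2 (0.59), at p under 0.05, as were 3.85% of all genes in the higher direction. That median was 0.059 without AI_Sham 4 and 0.68 without AI_Sham 1. The striatal and thalamic list had a median of 0.10 over 12 genes, and of -0.0012 without AU_Sham 4. Ttr, the transthyretin that choroid plexus makes in bulk, read 8.21 in AI_Sham 4 and between 4.05 and 6.45 in the other 7. Drd2, a dopamine receptor of striatum, was higher in AI_Sham by 0.45 (95% interval 0.070 to 0.84, adjusted p = 0.723). The part of tissue next to the cortex in the myelin difference was not tested. In the hippocampus of the same 8 animals the median of the 27 genes was 0.023, with none at p under 0.05 in either direction.

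**Figure D3:**
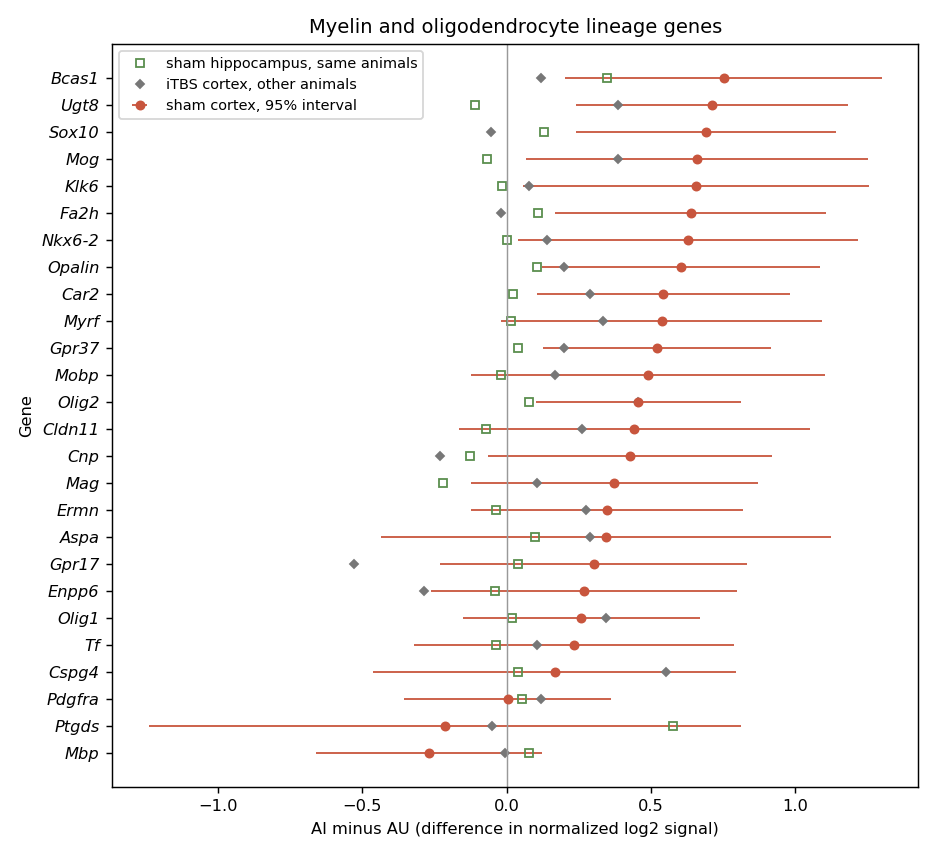
Difference between impaired and unimpaired animals, in normalized log2 signal, for 26 of the 27 myelin and oligodendrocyte genes, 1 probe each. Circles with 95% intervals are sham cortex, squares the hippocampus of the same sham animals and diamonds the cortex of other aged animals that received iTBS. In sham cortex 24 of the 26 circles lie above 0.

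Genes of the postsynaptic side of excitatory synapses had lower means in AI_Sham. Of 29 postsynaptic scaffold and plasticity kinase genes 26 were lower in AI_Sham, against 46.0% of all genes, with a median of -0.22. That median ran from -0.29 to -0.14 over the alternatives, and it was -0.14 with quantile normalization. At p under 0.05, 4 were lower and none higher, where 1.94% of all genes were lower and 3.85% higher. Camk4, a calcium and calmodulin dependent kinase of neuronal nuclei, read 5.17, 4.67, 4.89 and 4.68 against 3.45, 4.88, 4.05 and 4.17, a difference of -0.72 (95% interval -1.17 to -0.26, adjusted p = 0.658). AI_Sham 1 was lowest and AI_Sham 2 was within the unimpaired range. Homer2, a scaffold that links metabotropic glutamate receptors to calcium stores, read 4.64, 4.62, 4.71 and 4.62 against 3.37, 4.35, 3.99 and 4.20, without overlap, a difference of -0.67 (95% interval -1.16 to -0.18, adjusted p = 0.699). Nlgn3, a postsynaptic adhesion protein, read 3.77, 3.42, 3.50 and 3.34 against 2.82, 3.41, 3.02 and 3.05, a difference of -0.43 (95% interval -0.74 to -0.12, adjusted p = 0.699), and Dlg1, the scaffold SAP97, differed by -0.52 (95% interval -0.95 to -0.089, adjusted p = 0.716). The list's mean level ran from 5.42 to 5.66 in AU_Sham and from 5.19 to 5.52 in AI_Sham, where the highest was AI_Sham 2. In the presynaptic list 23 of 32 genes were lower, with a median of -0.15 (-0.20 to -0.073 over the alternatives) and 3 at p under 0.05: Rims1, an active zone scaffold (-0.65, SE 0.25), Syt7, a calcium sensor of slow release (-0.52, SE 0.21), and Cplx2, a complexin of the fusion machinery (-0.53, SE 0.24). The glutamate receptors themselves had a median of -0.075 over 23 genes, which was 0.0042 with slide as a block and ran from -0.15 without AI_Sham 2 to -0.048 without AU_Sham 3. Only Grik1, a kainate receptor subunit, had p under 0.05, with AI_Sham higher by 0.35 (95% interval 0.032 to 0.67, adjusted p = 0.760), and Grin2a, an NMDA receptor subunit, differed by -0.46 (95% interval -0.95 to 0.031, adjusted p = 0.823).

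Among 21 genes of GABA synthesis, transport and reception 17 were lower in AI_Sham, the median being -0.15 (-0.24 to -0.10 over the alternatives). Of these, 2 had p under 0.05, both lower, a count to be read against the 1.94% of all genes that were lower at that threshold. One was Gabra4, described above. The other was Gad2, which synthesizes GABA at terminals and read 4.75, 5.17, 5.16 and 5.15 in AU_Sham and 4.85, 4.87, 4.46 and 4.35 in AI_Sham, a difference of -0.42 (95% interval -0.77 to -0.073, adjusted p = 0.716). AU_Sham 1 was below AI_Sham 1 and 2, so the groups overlapped. The interneuron markers and neuropeptides had a median of -0.12 (-0.24 with slide as a block), with none of 21 at p under 0.05. Of the voltage-gated sodium and calcium channels 17 of 25 were lower, with a median of -0.15 that ran from -0.23 to -0.071 over the alternatives. Scn2a, a sodium channel of pyramidal neurons, differed by -0.46 (95% interval -0.84 to -0.071, adjusted p = 0.723), the sodium channel subunit Scn3b by -0.34 (95% interval -0.64 to -0.046, adjusted p = 0.729) and the calcium channel subunit Cacnb4 by -0.53 (95% interval -1.01 to -0.047, adjusted p = 0.761). Scn4b, a sodium channel subunit, went against them. It read 5.13, 6.29, 5.84 and 6.10 in AU_Sham and 6.64, 6.38, 7.08 and 7.00 in AI_Sham, higher in every impaired animal by 0.94 (95% interval 0.10 to 1.77, adjusted p = 0.742). Potassium channels were lower in 24 of 36 with a median of -0.11, which was -0.0057 with slide as a block, and 1 gene at p under 0.05, Kcnk9 (-0.71, SE 0.32), a leak channel. Genes of calcium stores, pumps and binding proteins were lower in 20 of 25, with a median of -0.12 (-0.18 to -0.067 over the alternatives), and their mean level was 4.92, 4.82, 4.88 and 4.79 in AU_Sham against 4.62, 4.75, 4.62 and 4.67 in AI_Sham, which did not overlap. Calm3, 1 of the calmodulin genes, read 9.72, 9.69, 9.85 and 9.83 against 8.50, 9.67, 9.50 and 9.61, a difference of -0.45 (95% interval -0.90 to -0.00081, adjusted p = 0.802), with AI_Sham 1 far below the rest. Mcu, the mitochondrial calcium uniporter, read -3.29, -0.86, -0.77 and -0.74 in AI_Sham and had the same outlying animal.

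Receptors for modulators split evenly, with 22 of 40 lower and 18 higher, 3 and 2 of them at p under 0.05, and a median of -0.010. Of all genes 1.94% were lower and 3.85% higher at that threshold. Adra2a, the alpha2A adrenergic receptor, which is also a target of the sedative dexmedetomidine that every animal received, read 3.24, 2.69, 2.64 and 2.72 in AU_Sham and 2.31, 2.72, 2.41 and 2.16 in AI_Sham, a difference of -0.42 (95% interval -0.76 to -0.085, adjusted p = 0.711). AU_Sham 1 was the highest by far. The serotonin receptor gene Htr1d differed by 0.83 (95% interval 0.17 to 1.49, adjusted p = 0.711) without overlap and was well above background in 2 of 4 AU_Sham and 4 of 4 AI_Sham animals. For Htr1b, a second serotonin receptor, the probes gave -1.11 and 0.53, each near background, so no direction is given. Chrna7, the alpha7 nicotinic receptor, differed by -0.72 (95% interval -1.34 to -0.10, adjusted p = 0.724). Over 28 immediate early genes the median was -0.14, with 1 at p under 0.05, Ptgs2 (-0.63), an activity-regulated cyclooxygenase, but AI_Sham 1 had the highest mean level of the 8 animals, 4.32 against 2.93 to 3.36 in the other impaired and 3.18 to 4.00 in the unimpaired. Fos, an early marker of neuronal activity, read 0.77, 2.57, 1.12 and 3.27 in AU_Sham and 4.22, 2.16, 1.07 and 1.20 in AI_Sham. The list's median turned on single animals: it was -0.36 without AI_Sham 1, 0.047 without AI_Sham 3, -0.0068 without AI_Sham 4 and -0.015 without AU_Sham 4. Of 22 cortical layer markers 16 were lower and 6 higher, with a median of -0.14 (-0.051 without AU_Sham 1 and -0.062 without AI_Sham 4). At p under 0.05, 2 were higher and none lower. Tle4, of layer 6 neurons, was higher in every impaired animal, at 4.33, 3.93, 4.08 and 4.03 against 3.27, 3.88, 3.65 and 3.73, by 0.46 (95% interval 0.15 to 0.77, adjusted p = 0.685), and the other was Syt6 (0.56, SE 0.25), a synaptotagmin.

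Genes of protein synthesis and respiration showed small differences of 1 sign. Of 75 cytoplasmic ribosomal protein genes 73 were lower in AI_Sham, with a median of -0.25, 4 at p under 0.05 against 1.94% of all genes (0 to 10 when 1 animal was left out, 0 without AU_Sham 1 or AI_Sham 3) and 5 whose groups did not overlap (1.32% of all genes did not overlap in this direction). Rps15 read 10.33, 10.06, 10.21 and 10.15 in AU_Sham and 9.90, 9.98, 9.69 and 9.91 in AI_Sham, lower in every impaired animal, a difference of -0.32 (95% interval -0.58 to -0.059, adjusted p = 0.711). The list's mean level ran from 9.32 to 9.65 in AU_Sham and from 9.05 to 9.43 in AI_Sham. Of 77 oxidative phosphorylation genes 68 were lower, with a median of -0.19. Ndufa2, a subunit of complex I, differed by -0.29 (95% interval -0.52 to -0.058, adjusted p = 0.711) and Atp5mk, of the ATP synthase, by -0.33 (95% interval -0.64 to -0.015, adjusted p = 0.774). These 2 lists hold some of the brightest probes of the array, and their medians shrank when the spread of the arrays was treated otherwise: to -0.059 and -0.022 with quantile normalization. Medians of other lists above were also nearer 0 with it: postsynaptic -0.14, GABA -0.13, presynaptic -0.082, sodium and calcium channels -0.073 and calcium stores -0.067. With the share of probes well above background as a covariate the ribosomal median was 0.00029. The chaperones Hsp90aa1 (-0.34), Hspa4 (-0.41) and Hsp90ab1 (-0.38) were the 3 members of the heat shock list with p under 0.05, while the list had a median of 0.0021 over 34 genes. A second probe gave -0.28 for Hsp90aa1 and -0.097 for Hsp90ab1, neither at p under 0.05.

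**Figure D4:**
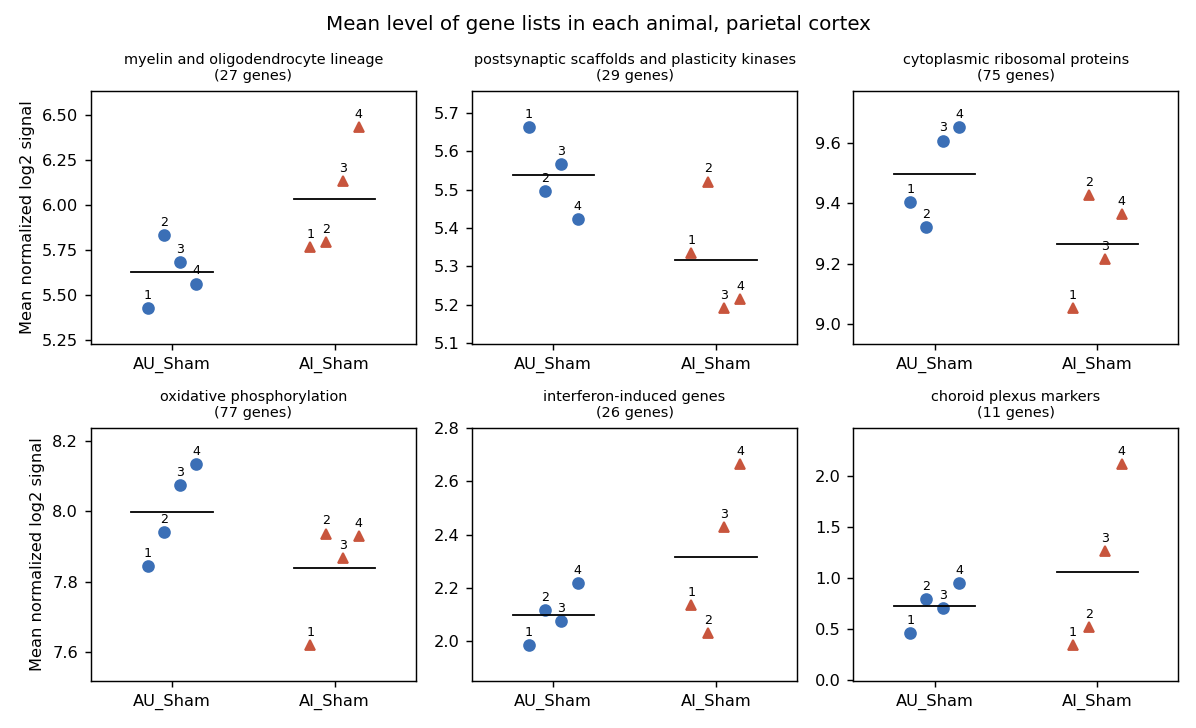
Mean normalized log2 signal of 6 gene lists in each of the 8 animals, numbered as in the titles, with bars at the group means. The vertical scale differs between panels and does not start at 0. The groups overlap in all 6 lists.

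Immune and glial lists showed no common shift. Of 27 microglia and macrophage genes none had p under 0.05, and the median of 0.031 became -0.23 with slide as a block and was also below 0 with scaling to the 75th percentile or normexp background correction. Cx3cr1, the microglial fractalkine receptor, read 5.66, 4.90, 5.66 and 5.07 in AU_Sham and 6.66, 5.34, 5.16 and 6.10 in AI_Sham, a difference of 0.49 (95% interval -0.25 to 1.23, adjusted p = 0.929). Astrocyte genes likewise had none of 26 at p under 0.05, with a median of 0.019 and of -0.21 with slide as a block. For the 8 genes of MHC class II the median was 0.23, -0.18 with that block and 0.056 without AI_Sham 4. Interferon-induced genes had a median of 0.20 over 26 genes, 19 of them higher, and 2 at p under 0.05, both higher, as were 3.85% of all genes. The median was 0.076 without AI_Sham 4 and 0.072 with slide as a block. Ifit3, of a family that restrains translation of viral RNA, read -1.29, -0.22, -1.30 and -0.52 against 0.89, -0.67, -0.17 and 0.031, by 0.85 (95% interval 0.047 to 1.66, adjusted p = 0.772). Ifi44 read 2.53, 2.43, 2.32 and 2.67 against 2.73, 2.49, 2.85 and 3.28, by 0.35 (95% interval 0.0047 to 0.69, adjusted p = 0.794). AI_Sham 3 and 4 had the highest mean levels of this list, 2.43 and 2.67, beside 1.99 to 2.22 in the other 6 animals. Among cytokines and chemokines, Il1a, which starts inflammatory signaling, read 0.14, -0.34, -0.023 and -0.66 against 0.58, 0.13, 0.35 and 0.53, by 0.62 (95% interval 0.22 to 1.01, adjusted p = 0.658). The B cell chemokine Cxcl13 was well above background in 2 of 4 AI_Sham and 0 of 4 AU_Sham animals, at least 1.94-fold higher (adjusted p = 0.699), though AI_Sham 1 was within the unimpaired range. Of the 30 genes of this list 4 had p under 0.05, all higher, beside the same 3.85% of all genes, and the median was -0.0036. Endothelial genes had a median of 0.10 and mural and meningeal fibroblast genes one of -0.11, with no member at p under 0.05 in either. The endothelial median was -0.0071 without AI_Sham 1 and -0.0019 without AI_Sham 4. The mural median was -0.58 with slide as a block, 0.12 without AU_Sham 4 and 0.12 without AI_Sham 2.

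The other lists stayed close to the median of all genes. Complement, MHC class I presentation, cholesterol, autophagy and lysosome, oxidative stress, glucocorticoid targets, clock, senescence, neurotrophin, proteasome, haemoglobin, hippocampal, neurogenesis, axon initial segment and Alzheimer-linked genes had medians from -0.092 to 0.12, and the sign of several, those of proteasome and axon initial segment genes among them, depended on the scaling. Members with p under 0.05 were Tfeb (0.52), the master regulator of lysosome genes, and Atg3 (0.46), of autophagosome formation, the cystine transporter Slc7a11 (-0.66), the growth factor Gdnf (1.31), the axonal adhesion gene Nrcam (-0.57), the neurofilament Nefm (0.52), the cell cycle kinase Cdk1 (0.61) and Neurod1 (-0.42). Apoe, the lipid carrier of astrocytes, differed by -0.28 (95% interval -0.63 to 0.063, adjusted p = 0.881), and Cdk5r1, the p35 activator of Cdk5, was lower in every impaired animal, with a difference of -0.47 (95% interval -0.96 to 0.021, adjusted p = 0.816).

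**Figure D5:**
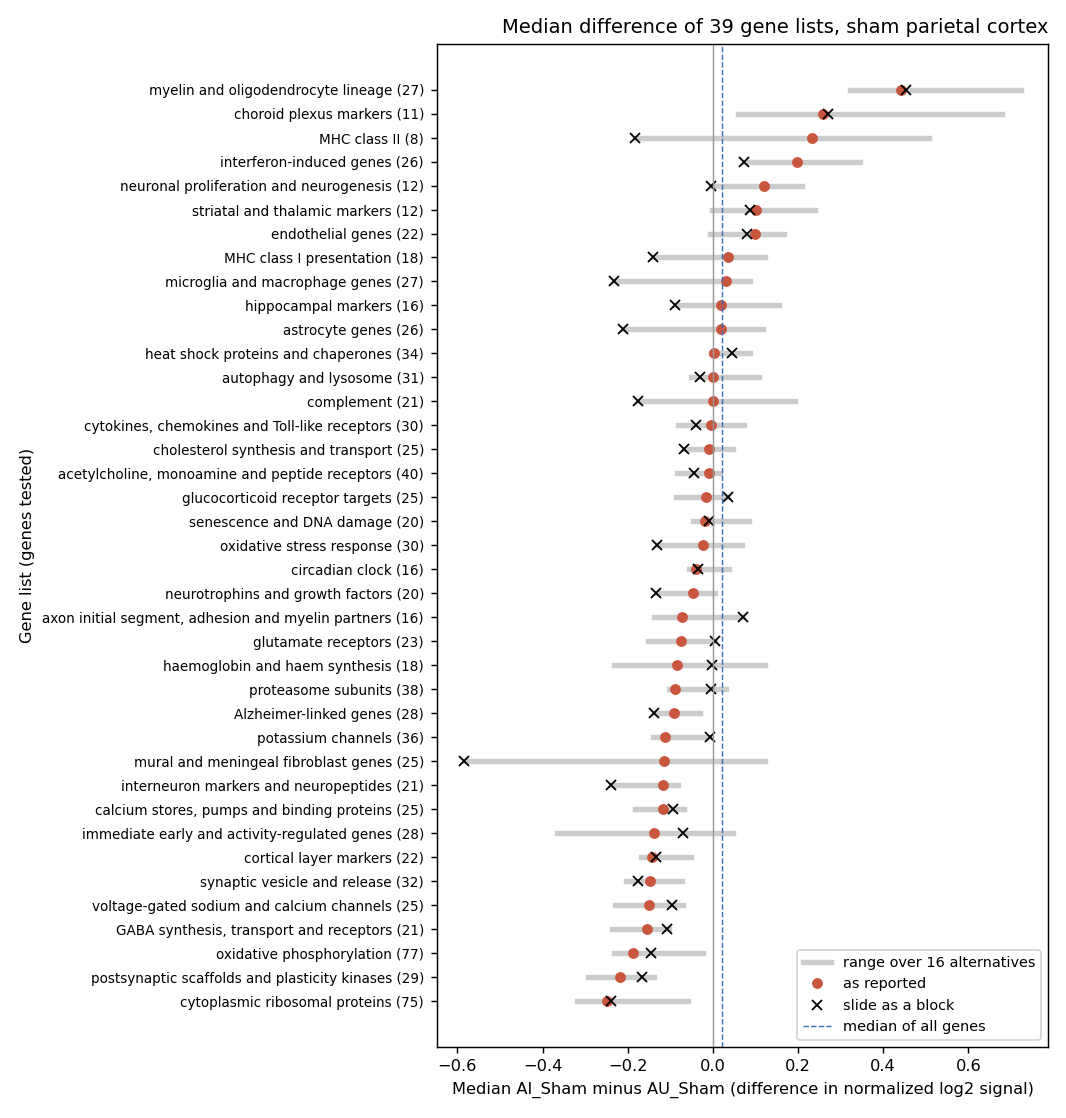
Median difference between AI_Sham and AU_Sham cortex, in normalized log2 signal, for 39 gene lists with the number of genes tested. Circles are the values as reported, gray bars the range over 16 alternatives, crosses the fit with slide as a block and the dashed line the median of all 13336 genes. The 16 alternatives do not include array weights or the share of probes above background as a covariate. The myelin list lies farthest to the right and the ribosomal list farthest to the left.

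The same contrast was measured in the hippocampus of the same 8 animals. There 0 of 32417 probes were called (0.00%) and 1290 (3.98%) had p under 0.05. A test of the cortex difference against the hippocampus difference within animals called 0 of 33720 probes (limma, smallest adjusted p = 0.273), with 1482 (4.40%) at p under 0.05. Of the 20 leading cortex probes none had p under 0.05 in the hippocampus, where Rnf225 gave -0.079, Slc35d2 0.15, Prkacb -0.27 and Gria3 -0.088. For Rnf225 the difference between regions was 1.27 (SE 0.43, adjusted p = 1.000). The Apln probe that gave -1.21 in cortex gave -1.16 (SE 0.50) in hippocampus.

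Cognitive status could also be compared in other aged animals, 3 AI_iTBS and 5 AU_iTBS, whose cortex was taken 48 h after intermittent theta burst stimulation (iTBS), a patterned magnetic stimulation. In them 2 of 32603 probes were called (0.00613%), those of the transcription factor gene Ehf and of LOC102554664, both below background in all AU_iTBS animals, and 3732 (11.4%) had p under 0.05. The sham difference minus the iTBS difference, which uses all 16 aged cortex arrays, was called at 6 probes (0.0184%), and 2664 (8.17%) had p under 0.05. All 6 were dim. C2cd6, a sperm flagellum gene, read -2.09, 0.35, -3.35 and -2.18 in AU_Sham and -4.67, -4.87, -4.93 and -4.74 in AI_Sham, but -5.08, -5.44, -5.15, -4.66 and -4.94 in AU_iTBS and -3.06, -1.96 and -2.19 in AI_iTBS. It was well above background in 2 of 4 AU_Sham, 0 of 4 AI_Sham, 0 of 5 AU_iTBS and 2 of 3 AI_iTBS animals, so the dim groups have no measured level and the contrast no measured size (limma adjusted p = 0.0139). Hs3st3b1, a heparan sulfate sulfotransferase, was well above background in 1 of 4 AU_Sham, 0 of 4 AI_Sham, 0 of 5 AU_iTBS and 2 of 3 AI_iTBS animals, and the same holds for its contrast (limma adjusted p = 0.0139). The other 4 probes had no symbol.

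Of the gene lists, the myelin genes had a median of 0.17 in iTBS cortex, with 1 of 27 at p under 0.05, and 2 of 27 had p under 0.05 for the sham minus iTBS contrast, a share set beside the 8.17% of all probes. Sox10 gave -0.054 in iTBS cortex. The ribosomal genes had the opposite sign there, with a median of 0.32, and 28 of 75 had p under 0.05 for the contrast, none of which passed correction. For Rps15 the sham difference of -0.32 stood beside an iTBS difference of 0.31 (adjusted p of the contrast = 0.458). Oxidative phosphorylation genes had a median of 0.21 in iTBS cortex, and 12 of 77 had p under 0.05 for the contrast. For both lists these values are given with z-score scaling only. The sham medians of both shrank with quantile normalization, as given above. Of the 20 leading probes, 14 had the same sign in iTBS cortex, 5 of them with p under 0.05. Of all 32603 probes 49.8% had the same sign, and 1998 had it with p under 0.05 in iTBS cortex. Both contrasts came from the same fit, with a shared estimate of spread for each probe. Choosing probes by their sham p favors probes of small spread, so all probes are not a like background for the leading ones. Rnf225 gave -0.0037 and Slc35d2 -0.044 in iTBS cortex, while Prkacb gave -0.57 (SE 0.22), Gria3 -0.30 (SE 0.13) Cnksr2 -0.43 (SE 0.20), Trim15 -0.86 (SE 0.35) and Stxbp3 0.41 (SE 0.15). Gabra4 gave -0.11 and Syn2 -0.16 (SE 0.19). The probes of Prkacb, Gria3, Cnksr2, Syn2 and Trim15 used here were not the brightest of their genes. In sham cortex the brightest gave -0.030, -0.18, -0.032, -0.20 and 0.013.

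A few named genes had p under 0.05 with the same sign in sham cortex, sham hippocampus and iTBS cortex. Cadps, which primes dense core vesicles for release, gave differences of -0.56, -0.32 and -0.56 in the order given, at a dim probe, while its bright probe in sham cortex gave -0.032. Ap2b1, a subunit of the clathrin adaptor of endocytosis, gave differences of -0.44, -0.47 and -0.48, with no overlap in sham cortex. Its other probes there gave -0.27 and -0.15. Wdr7, a regulator of vesicle acidification, gave differences of -0.51, -0.35 and -0.54. Tmprss7, a membrane serine protease, was higher by 0.70, 0.45 and 0.69, and Ifi44 by 0.35, 0.43 and 0.44. These genes were picked for that pattern, so the agreement is a description.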

How the data were processed

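Total RNA of parietal cortex was hybridised to 1-color Agilent rat arrays. Per the file headers, Agilent Feature Extraction 12.0.3.1 gave the deposited processed signal intensity, which is background-subtracted. The authors also deposited z-scores, a score of log2 signal per array, and these matched the z-scores computed here within 0.005. Processed signals were taken to log2, turned into z-scores on each array over 45598 non-control probes (spots averaged) and multiplied by the mean SD, 4.09. limma 3.58.1 (R 4.3.3) fitted the 24 first cortex arrays in 6 groups, with Benjamini-Hochberg adjustment over 32603 probes. Symbols came from a RefSeq table through accessions for 46.3% of probes. Its coordinates were not used.

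Named genes were, in each direction: the 10 smallest p-values among probes well above background on all 8 arrays; 5 probes above background in 1 group; the largest non-overlapping differences; members of the 39 lists by p; and genes with p under 0.05 in all 3 settings. Genes such as Fos, Ttr, Mbp and Pdgfra were named after their values were seen. The members and lists were chosen with earlier results of these data known. Alternatives covered scaling, normexp (on gMedianSignal, since the mean signal column is absent), filters, slide, scan day, array weights, replicate number and leaving out animals. Each animal is 1 replicate. The number of arrays limits the precision. 1 array could not be assigned to a group. Some genes are not reported here.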

Additional observations from a re-analysis of the deposited data

Results flagged for a closer look

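In 27 cases the normalized log2 signal of a gene in 1 animal stood far from the other 3 of its group. Chance gives such a gap in about 1 of 20 groups. The 27 cases were not compared with the number expected at that rate, so they are a description. AU_Sham 1 stood apart at Cyp2s1 (0.65), Gad2 (4.75), Adra2a (3.24), Cfi (-2.98), Ppox (0.39), Nefm (6.53) and Slc17a6 (3.19). AU_Sham 2 stood apart at Nqo1 (1.36) and Uros (0.83). AU_Sham 3 stood apart at Trim15 (0.43) and Bcas1 (4.71). AU_Sham 4 stood apart at Or13a1 (-4.70) and Ndufa4 (9.45). AI_Sham 1 stood apart at LOC102549473 (-2.92), Npm2 (-2.72), Slc12a5 (-1.87), Mcu (-3.29), Calm3 (8.50), Slc7a11 (3.12) and Mvk (1.99). AI_Sham 2 stood apart at Ankrd44 (2.22), Or13a1 (-3.26), Wdr7 (0.29), Pdyn (5.12), Scn2a (7.84) and Nsdhl (2.95). AI_Sham 3 stood apart at Psma4 (6.77).

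The difference between impaired and unimpaired cortex differed between sham and iTBS animals at 6 probes, tested as the sham difference minus the iTBS difference in limma. It was -4.28 at Hs3st3b1 and -5.64 at C2cd6, and -3.83, -5.22, -4.02 and 2.27 at 4 probes without a symbol, all on the log2 scale. Each of these probes was well above background in no animal of at least 1 of the 4 aged cortex groups, so these are fitted values against levels below background and not measured sizes.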

How the results depend on the processing

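No probe was called under the settings tried, except those given here. Array weights gave 2279 called probes of the 32603 tested, with weights from 0.26 to 8.94 over the 24 arrays, the highest at AI_iTBS 3. Beside that share of all probes, 10 of 27 myelin genes were among the called. Leaving out 1 animal gave 0 to 2, the 2 without AU_Sham 3. The study's selection rule, applied as far as its methods state it, a false discovery rate of 0.3 with a z-ratio of 1.5, took 82 probes. The cause was not tested. At p under 0.05 the 2029 probes became 1165 among probes with a mean z-score above 0, 7762 with array weights, 1438 to 3106 leaving out 1 animal (3106 without AI_Sham 2), 3083 with the share of probes above background as a covariate, and 893 with probes averaged per gene. The 1191 higher became 791 with scaling to the 75th percentile, 601 above a mean z-score of 0, 3977 with array weights and 545 per gene. The 838 lower became 1290 with no filter, 1295 with slide as a block, 3785 with array weights, 594 to 1436 leaving out 1 animal, 1437 with the covariate and 348 per gene. The counts are smaller where fewer probes were tested. With slide as a block 2586 probes had p under 0.05, 887 of them shared with the 2029, and 4 probes were called in hippocampus. In iTBS cortex the 2 calls became 0 with scaling to the 75th percentile, 1 with quantile normalization, 41 with no filter and 0 with slide as a block. The 6 calls of the sham minus iTBS contrast became 51 with no filter.

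Replicate numbers were tried as a block, although they do not pair the animals: animals of the same number correlated by 0.35, 0.090, 0.079 and 0.11, and not each correlated best with its own number. The block gave 1 called probe, 0 in iTBS cortex and 2 for the sham minus iTBS contrast.

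Of 3653 values of 153 probes under alternatives, 3560 kept direction and side of the threshold, 83 passed it, all with array weights, and 10 changed sign. Lgals3, lower as reported, gave 0.16 with array weights, -0.74 to 0.041 leaving out 1 animal (0.041 without AU_Sham 1) and 0.23 without both animals numbered 1. C3 gave -0.043, Cd74 -0.67 and Ccnd1 -0.0054 with slide as a block. Cd74 also gave -0.28 with a random slide effect and -0.27 with the covariate, Notch3 -0.17 with the covariate and Dcn 0.038 with array weights. Of 624 list medians under alternatives 590 stayed within the spread between animals. Such a median could still change sign. The sign was opposite in 9 of 16 alternatives for glucocorticoid targets and in 8 each for the microglia, cytokine and autophagy lists. It was opposite in 0 for the myelin, postsynaptic and ribosomal lists. Array weights and the covariate were not among these 16, and the ribosomal median with the covariate, given above, was not negative. Leaving out both animals numbered 1 and the covariate were chosen after seeing the data. Probes near background have uncertain differences.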
